A study of Mus musculus with 10 samples.

Results

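Epithelial cytokine receptors carry signals from immune cells into the intestinal epithelium. The 10 genes described here encode chains of the receptors for IL-4 and IL-13, IL-22, IL-17, interferon-γ, the type I and type III interferons and the IL-6 family, and they were taken by name from the 54838 genes listed for each library. The list was drawn up because Il13ra1 was among the sharpest rises in Arid3a cKO crypts, so the difference between genotypes in the 10 genes is given as a description, without a test. The RNA was that of crypts isolated from the jejunum, with 5 libraries from WT and 5 from Arid3a cKO mice, each from 1 animal. The cKO mice carried VillinCre-ERT2 and floxed Arid3a, so that tamoxifen deletes Arid3a in cells that express Villin, which are the epithelial cells of the gut, and not in immune or stromal cells. Both genotypes were injected with tamoxifen on 3 days and killed 1 month after the first injection. The animal identifiers fell into different series for WT and cKO, so colony or litter cannot be told apart from genotype.

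Most of these receptors work as pairs. A ligand-binding chain joins a partner chain, and the cytoplasmic tails of both bring kinases of the JAK family together, which phosphorylate STAT transcription factors. IL13RA1 pairs with IL4RA to form the receptor through which epithelial cells answer IL-4 and IL-13, the cytokines of worm infection and allergy. IL10RB is shared between the receptors for IL-10, for IL-22 (with IL22RA1) and for the type III interferons (with IFNLR1), and in the gut the IL-22 and type III interferon receptors are found mainly on epithelium. IL6ST, also called gp130, is the shared signalling chain of the IL-6 family. IL17RA stands apart, since it signals through the adaptor ACT1 and not through JAK kinases.

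The sequence before the start of transcription was compared first, to see what these genes share that did not enter the choice of the list. RefSeq windows for GRCm38.p6 were matched for 8 of the 10 genes, all on the plus strand, and none was matched for Il10rb and Il17ra. The 250 bases before the RefSeq start held the GC box GGGCGG, on either strand, in 8 of 8 receptor genes. It was in 32.7% of all 32851 windows of the same length. GENCODE M21, used here for gene positions, starts Ifnlr1 at 135686287 and Il4ra at 125552120. The windows of these genes run past those starts, and the GC box of each lies beyond them, inside the gene as GENCODE places it. Neither the STAT element TTCNNNGAA nor the core GAAANNGAA of the interferon-stimulated response element was found in the 8 windows, on either strand, against 7.02% and 7.13% of all windows. The letters GTTAAT of HNF1 and CAAAGTCCA of HNF4, factors of enterocyte maturation, were also in 0 of 8, against 6.43% and 0.384%. Adenine and thymine together made up 26% to 42.4% of the receptor windows, with a median of 36%, and 47.6% of the median window. The windows cover 27025 gene symbols, while 14719 genes were tested, so they include genes too low to test in these crypts. All receptor genes were tested, and the shares among tested genes alone were not counted. Letters found in 7.13% of windows or fewer can be absent from 8 by chance. These are letter matches and not binding sites. Windows of 3 genes are shown because they held the sharpest rise (Il13ra1, chrX:36111858-36112107), the largest log2 fold change (Ifnlr1, chr4:135686207-135686456) and the only negative one in the edgeR fit (Il6st, chr13:112463820-112464069), with each GC box in capitals, on whichever strand it lies.
Il13ra1: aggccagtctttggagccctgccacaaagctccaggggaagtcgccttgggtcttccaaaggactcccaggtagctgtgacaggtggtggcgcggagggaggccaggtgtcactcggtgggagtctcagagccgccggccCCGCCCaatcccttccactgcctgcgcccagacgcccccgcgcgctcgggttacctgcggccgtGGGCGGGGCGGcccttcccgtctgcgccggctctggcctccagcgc
Ifnlr1: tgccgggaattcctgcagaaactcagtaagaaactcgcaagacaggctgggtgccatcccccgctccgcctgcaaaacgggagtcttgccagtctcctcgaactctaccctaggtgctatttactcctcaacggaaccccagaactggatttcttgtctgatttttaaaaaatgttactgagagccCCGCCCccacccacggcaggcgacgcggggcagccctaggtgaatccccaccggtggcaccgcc
Il6st: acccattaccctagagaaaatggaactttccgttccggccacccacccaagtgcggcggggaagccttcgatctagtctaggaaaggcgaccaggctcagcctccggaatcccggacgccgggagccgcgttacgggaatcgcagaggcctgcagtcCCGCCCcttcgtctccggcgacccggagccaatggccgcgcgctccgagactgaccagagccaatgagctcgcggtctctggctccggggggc

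Il13ra1 held 3 such boxes, of which 2 overlap by a base, while Ifnlr1 and Il6st held 1 each. Ifngr2 had the most, with 4. The box was thus found in Il6st, with its negative fold change, and in the 7 genes with positive ones for which a window was matched.

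The libraries held 27050455 to 28152743 expected counts in WT and 28314069 to 31053622 in cKO. Arid3a, the targeted gene, was at 1.91, 2.06, 2.75, 2.68 and 2.69 CPM (counts scaled to a common library size after edgeR's TMM normalization) in WT replicates 1 to 5 and at 0.303, 0.516, 0.489, 0.883 and 1.17 CPM in cKO replicates 1 to 5. Transcripts without the floxed exons, and those of cells without Villin, still count towards the cKO value. The tissue label held, with 5 of 5 epithelial markers (Epcam, Cdh1, Krt8, Krt20, Vil1) tested and a summed level of 4341 to 5159 CPM in WT and 5373 to 6153 CPM in cKO. Markers of villus enterocytes, the absorptive cells above the crypt, had the largest absolute difference in summed CPM. On the log2 scale the B and plasma cell list differed more (−1.98 against 1.85). The 12 enterocyte genes summed to 1797 to 8667 CPM in WT and 10066 to 18886 CPM in cKO, with 11 of 12 higher by edgeR's test (two-sided exact permutation test on log2 of the sum, p = 0.00794, the smallest that 5 against 5 allow, adjusted over 13 lists p = 0.0129). In bulk RNA, more cells of a type and more RNA per cell cannot be told apart. The part of the enterocyte shift in the receptor values was not tested, and its values are set beside them below.

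Of the 10 receptor genes, all of which passed the filter on low counts, 6 passed edgeR's threshold (adjusted p below 0.05 over all 14719 genes tested) and all 6 were higher in cKO. They were Il13ra1, Il22ra1, Il10rb, Ifngr1, Ifngr2 and Ifnlr1. Over all genes tested, 28.3% passed, 15.6% in the higher direction and 12.7% in the lower. Their groups of CPM values did not overlap in 6 of 10, against 19.6% of all genes. Since these same values put the genes on the list, nothing is read from either count. The median log2 fold change was 0.37 over the 10 genes and −0.03 over all genes tested.

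**Figure D1:**
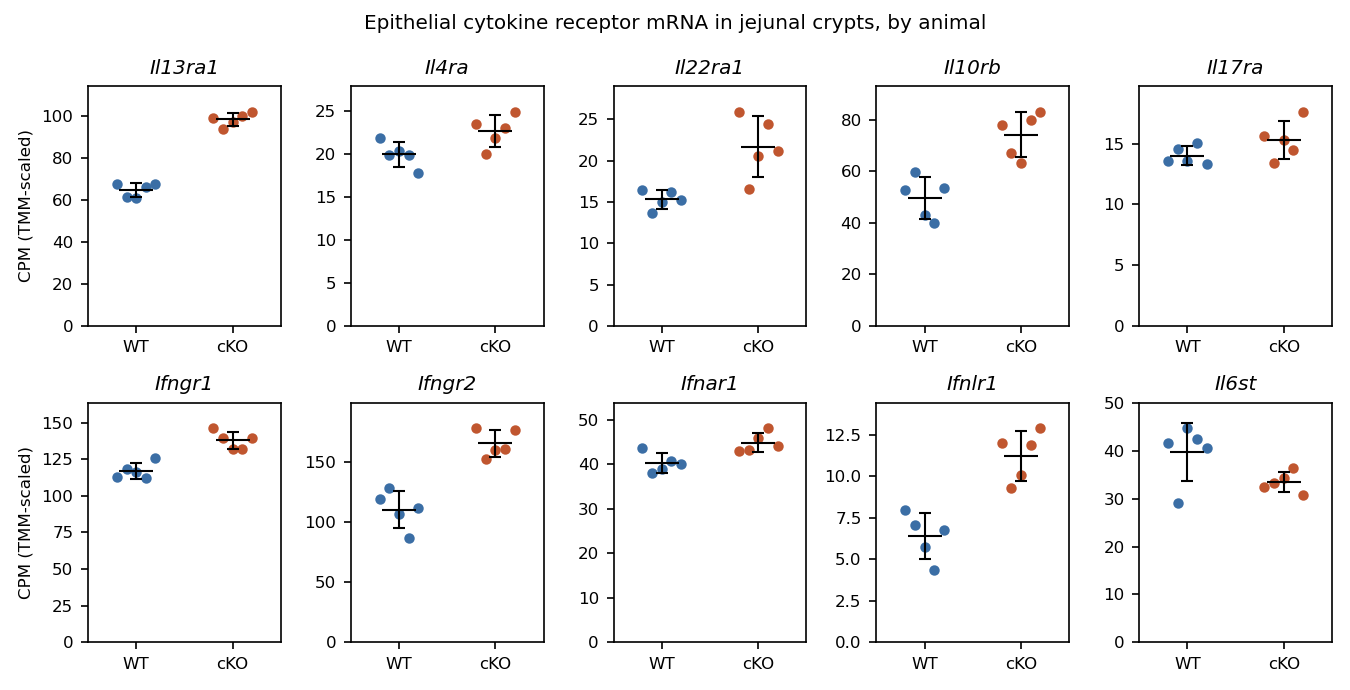
TMM-scaled CPM of the 10 receptor genes (vertical axes, each from 0) in WT (blue) and Arid3a cKO (orange) crypts. Each point is 1 animal, in order of replicate number from left to right, and bars are the mean and SD of 5 animals. Il13ra1 separates most cleanly for its spread (60.8 to 67.7 against 93.7 to 102.0 CPM), and for Il6st WT replicate 2 lies apart from the other WT animals.

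Il13ra1, the IL-13-binding chain, lies on chromosome X of GRCm38 from 36112110 to 36171259. It stood at 67.7, 61.5, 60.8, 66.0 and 67.3 CPM in WT replicates 1 to 5 and at 99.2, 93.7, 97.2, 100.03 and 102.0 CPM in the cKO replicates. The lowest cKO animal was well above the highest WT animal. The log2 fold change was 0.61 (standard error 0.06), a level 1.52 times as high in cKO. The spread within a genotype was small, with an SD of 0.061 on the log2 CPM scale, and 2.65% of the genes with a mean of at least 10 CPM had a smaller one. The enterocyte marker sum of the same animals was 5666, 8667, 2965, 1797 and 4257 CPM in WT and 14632, 13690, 10066, 18007 and 18886 CPM in cKO. Within cKO the animals with the highest sums (replicates 4 and 5) also had the most Il13ra1 and those with the lowest (replicates 2 and 3) the least, while within WT the animal with the highest sum (replicate 2) had less Il13ra1 than the one with the lowest (replicate 4).

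Il4ra, the chain it pairs with, lies on chromosome 7 from 125552120 to 125579474. Its levels were 21.9, 19.8, 20.3, 19.9 and 17.7 CPM in WT and 23.5, 19.9, 21.8, 23.0 and 24.9 CPM in cKO. The groups overlapped, and the log2 fold change was 0.18 (standard error 0.08). Per length, in TPM, Il13ra1 was 3.58 ± 0.408 (SD, n = 5) times as abundant as Il4ra in WT libraries and 4.83 ± 0.311 (SD, n = 5) times in cKO libraries. The ratio ran from 3.15 to 4.24 in WT and from 4.43 to 5.26 in cKO without overlap. A ratio within a library does not depend on how libraries are scaled. Because the list was chosen on the rise of Il13ra1 in these libraries, nothing is read from this separation. The share of all gene pairs whose ratios do not overlap was not computed.

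**Figure D2:**
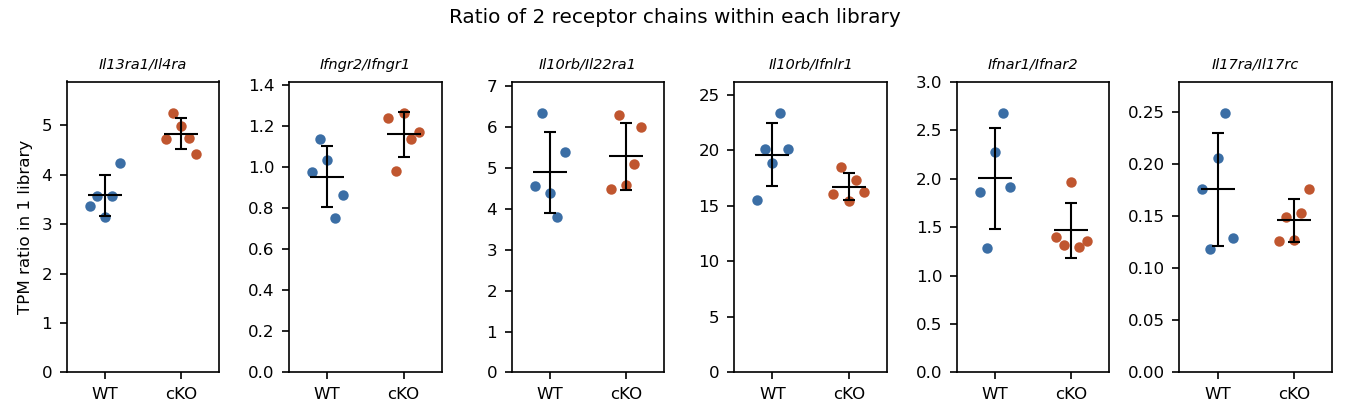
Ratio of the TPM of 2 receptor chains within each library (vertical axes, each from 0), in WT (blue) and Arid3a cKO (orange) crypts, with 1 point per animal and the mean and SD of 5. The groups do not overlap for Il13ra1 over Il4ra (3.15 to 4.24 against 4.43 to 5.26) and overlap for the other 5 pairs. The list was chosen on the rise of Il13ra1, so this is a description.

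Among the chains of the IL-22 and type III interferon receptors, Ifnlr1 had the largest log2 fold change of the 10 genes and the lowest level. This ligand-binding chain of the type III interferon receptor was at 7.97, 7.09, 5.76, 4.35 and 6.80 CPM in WT and at 11.99, 9.28, 10.1, 11.9 and 12.9 CPM in cKO. No cKO animal fell to the highest WT animal, and the log2 fold change was 0.81 (standard error 0.15). Its counts per library ran from 130 to 356, so counting error weighs more here than in the other genes.

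Il22ra1, the IL-22-binding chain, was at 16.5, 13.6, 15.0, 16.2 and 15.3 CPM in WT and at 25.9, 16.5, 20.5, 24.4 and 21.2 CPM in cKO. The groups met at 16.5 CPM, where cKO replicate 2 and WT replicate 1 were nearly equal. The log2 fold change was 0.50 (standard error 0.11), and the gene no longer passed when the authors' TPM values were tested with limma. Il10rb, the chain shared with IL-10, was at 52.6, 59.5, 43.1, 39.8 and 53.4 CPM in WT and at 78.1, 67.1, 63.0, 79.8 and 83.1 CPM in cKO, a log2 fold change of 0.58 (standard error 0.12) without overlap. The ratio of Il10rb to Il22ra1 in TPM was 4.90 ± 0.995 (SD, n = 5) in WT and 5.29 ± 0.821 (SD, n = 5) in cKO, with overlap. The ratio of Il10rb to Ifnlr1 was 19.6 ± 2.83 and 16.7 ± 1.23 (SD, n = 5 each) and also overlapped.

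Of the interferon-γ receptor, the second chain differed more than the ligand-binding one. Ifngr2 was at 119, 128, 107, 86.5 and 111 CPM in WT and at 178, 153, 159.6, 161 and 176 CPM in cKO. The groups did not overlap, and the log2 fold change was 0.58 (standard error 0.10). Ifngr1, which binds the ligand, was at 113, 118, 116, 112 and 126 CPM in WT and at 146, 139.4, 132.3, 131.9 and 139.6 CPM in cKO. The groups did not overlap either, but the log2 fold change was only 0.24 (standard error 0.06), and it did not pass when libraries were scaled by size only, when TPM was tested or without WT replicates 3 and 4. The ratio of Ifngr2 to Ifngr1 in TPM was 0.955 ± 0.150 in WT and 1.16 ± 0.111 in cKO (SD, n = 5 each), with overlap.

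Within WT, Ifngr2 and Il10rb were highest in replicate 2 (128 and 59.5 CPM) and lowest in replicate 4 (86.5 and 39.8 CPM), the animals with the highest and the lowest sum of enterocyte markers. The nearest animals of the 2 genotypes in that sum were WT replicate 2 (8667 CPM) and cKO replicate 3 (10066 CPM). Between this pair Il10rb stood at 59.5 and 63.0 CPM, Ifngr2 at 128 and 159.6 CPM, Ifnlr1 at 7.09 and 10.1 CPM and Il13ra1 at 61.5 and 97.2 CPM. Il6st, whose mean was lower in cKO, stood at 29.1 and 34.2 CPM. With 1 animal of each genotype, the pair gives no spread. Markers of the other cell types that the crypt preparation could hold moved in different directions. The 7 T cell genes summed to 77.9 to 269 CPM in WT and 116 to 286 CPM in cKO (exact permutation test, adjusted p = 0.563). The sum of the 4 B and plasma cell genes was lower in cKO, at 6.74 to 17.9 CPM against 18.9 to 55.4 CPM in WT. So were the sums of Paneth cell genes, at 7094 to 9447 against 10787 to 17631 CPM, and cycling genes, at 1151 to 1376 against 1491 to 1717 CPM. Each of these 3 lists had adjusted p = 0.0129 in the exact permutation test. Lower by edgeR's test were 1 of 4 B and plasma cell genes, 5 of 5 Paneth cell genes and 3 of 5 cycling genes. Tuft cell and enteroendocrine sums were higher in cKO, without overlap and with 2 of 4 genes higher by edgeR's test in each (exact permutation test, adjusted p = 0.0129 for both). The goblet cell sum was 2451 to 3428 CPM in WT and 3276 to 3982 CPM in cKO (exact permutation test, adjusted p = 0.0459). Its groups overlapped, 0 of its 5 genes passed edgeR's test, and WT replicate 4 lay apart from the other WT animals at the low end. Of the stem cell genes 3 of 5 were lower by edgeR's test. Their sum, at 5173 to 8718 CPM in WT and 4220 to 6307 CPM in cKO, did not pass (exact permutation test, adjusted p = 0.0619). Nor did the myeloid sum, at 29.2 to 74.8 and 15.9 to 98.6 CPM, and the stromal sum, at 8.97 to 81.7 and 8.52 to 131 CPM (exact permutation test, adjusted p = 0.216 and 0.43). In each of these lists 1 of 6 genes was lower by edgeR's test. The endothelial sum was near the limit of counting at 0.958 to 4.34 CPM in all and lower in cKO (exact permutation test, adjusted p = 0.0129). Only 1 of its 3 genes was tested by edgeR, and it was lower. What these shifts contribute to the receptor values was not tested.

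Ifnar1, Il17ra and Il6st did not pass the threshold. Ifnar1, the chain of the type I interferon receptor that binds TYK2, was at 43.7, 38.1, 38.9, 40.8 and 40.0 CPM in WT and at 43.0, 43.2, 45.9, 48.1 and 44.1 CPM in cKO, with a log2 fold change of 0.15 (standard error 0.06). The groups overlapped through WT replicate 1, and without that animal Ifnar1 passed, with a log2 fold change of 0.19. Il17ra was at 13.6, 14.6, 13.5, 15.1 and 13.3 CPM in WT and at 15.6, 13.4, 15.3, 14.5 and 17.6 CPM in cKO. Its log2 fold change of 0.12 (standard error 0.09) turned to −0.0081 when libraries were scaled by size only, so its direction depends on the scaling.

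Il6st was the only gene of the 10 with a lower mean CPM in cKO, while in TPM the mean of Il17ra was lower as well (5.80 and 5.49 TPM). Its levels were 41.6, 29.1, 44.7, 42.4 and 40.6 CPM in WT and 32.4, 33.2, 34.2, 36.4 and 30.8 CPM in cKO. Of the WT animals, 4 were above every cKO animal, and WT replicate 2, the WT animal with the most enterocyte marker RNA, was below every one. The log2 fold change was −0.25 (standard error 0.10). Without WT replicate 2 it was −0.34 and passed the threshold, and it also passed in the authors' TPM, at −0.44, and with libraries scaled by size only, at −0.38.

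The gap between counts and TPM in Il6st goes with another quantity in the files, the mean transcript length that RSEM weights by the abundance of each transcript. It was 6943, 6624, 6274, 6847 and 6850 bases in WT and 7354, 7512, 7324, 7221 and 7388 bases in cKO. Every cKO animal was above every WT animal, by 652 bases in the mean (two-sided exact permutation test on log2 length, p = 0.00794, the smallest it can give). Of the 11860 genes tested whose weighted length varied, 3.79% did not overlap between the genotypes, 2.86% with longer values in cKO. With adjustment over all 11860 the p for Il6st was 0.21 in this exact permutation test, and 0 genes passed at that number of animals, against 1547 at an unadjusted p below 0.05. The annotation used here (GENCODE M21 on GRCm38) lists 10 transcripts of Il6st, on chromosome 13 from 112464070 to 112510086. The longest is 8678 bases, with 5644 bases after the coding sequence, and the next is 5207 bases, with 2418 after it, and both have the same 2751 coding bases. The weighted length lies between these and does not say which transcript changed. Of the other 9 genes, 3 have a single transcript (Il13ra1, Il22ra1, Ifnlr1) and the weighted lengths of 6 overlapped, with unadjusted exact permutation p from 0.278 to 0.881.

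**Figure D3:**
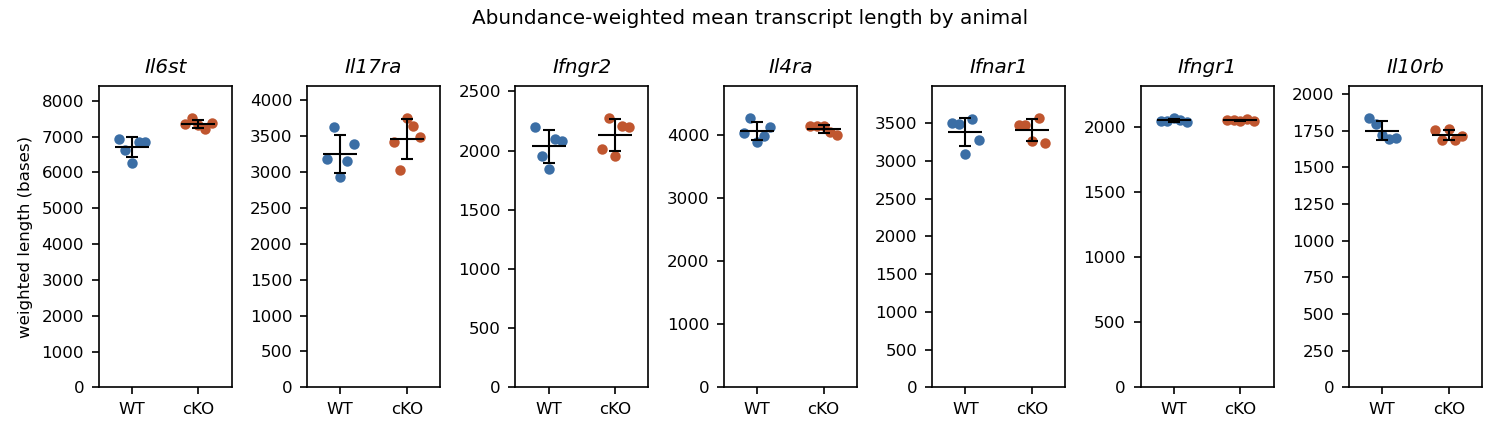
Abundance-weighted mean transcript length in bases, from 0, of the 7 receptor genes with more than 1 annotated transcript, in WT (blue) and Arid3a cKO (orange) crypts. Points are animals, and bars are the mean and SD of 5. Il6st runs from 6274 to 6943 bases in WT and from 7221 to 7512 bases in cKO, and the other 6 genes overlap.

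In order of level per length in WT crypts, Ifngr1 (77.3 ± 1.44 TPM) and Ifngr2 (73.7 ± 10.6 TPM) led, and their ranges overlapped. Il10rb (38.6 ± 3.87 TPM), Il13ra1 (23.1 ± 1.90 TPM) and Ifnar1 (15.9 ± 1.38 TPM) followed, each range clear of the next. Il22ra1 (8.03 ± 0.974 TPM), Il6st (7.80 ± 1.53 TPM), Il4ra (6.53 ± 0.941 TPM) and Il17ra (5.80 ± 0.844 TPM) followed, each range overlapping the next one down. Of these 4 genes the ranges were clear of each other only between Il22ra1 (6.88 to 9.12 TPM) and Il17ra (4.78 to 6.87 TPM), and there only narrowly. Ifnlr1 was lowest at 2.01 ± 0.413 TPM (SD, n = 5 for each of the 10). In cKO crypts Ifngr2 was at 99.0 ± 11.3 TPM and Ifngr1 at 85.2 ± 3.99 TPM, and Il4ra at 6.85 ± 0.762 TPM and Il6st at 5.57 ± 0.610 TPM. The ranges of both pairs overlapped in each genotype. Within single libraries, Il4ra was above Il6st in every cKO animal, and Il6st was above Il4ra in every WT animal but replicate 2. The ratio of Ifngr2 to Ifngr1 within a library ran from 0.755 to 1.14 in WT and from 0.984 to 1.27 in cKO. That pair thus had no single order in either genotype. These orders were not tested.

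Several of the receptor genes are neighbours. Ifnar2, Il10rb, Ifnar1 and Ifngr2 lie in this order on the plus strand of chromosome 16 within 192841 bases, from 91372783 to 91565623, and Ifnlr1 and Il22ra1 lie 19990 bases apart on chromosome 4, from 135686287 to 135752140. In the chromosome 16 row the log2 fold changes were 0.51, 0.58, 0.15 and 0.58, so the row did not move as a block. Ifnar1, between Il10rb and Ifngr2, was the lowest of the 4. The next gene, Tmem50b, was also higher, with means of 30.4 CPM in WT and 42.4 CPM in cKO (edgeR log2 fold change 0.48, adjusted p = 0.0155). Gm21970 overlaps both Ifnar2 and Il10rb and shares reads with them (1.76 and 2.08 CPM). With the counts of these 3 genes summed, a choice made after the data were seen, the log2 fold change was 0.56. Beside the chromosome 4 pair, none of Rcan3, Nipal3, Stpg1, Myom3, Srsf10 and Pnrc2 passed. Over all 10 receptor genes, 11 of the 42 nearest tested genes that are no receptor of the list (3 on each side) passed, 8 higher and 3 lower, which is 26.2% against the 28.3% of all genes.

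Partner chains of these receptors were described from a list of 17, of which 14 were tested. There were 2 that passed, both higher, and 12 that did not, and the median log2 fold change was −0.30. The share that passed was 14.3%, against 28.3% of all genes tested. Ifnar2, the second chain of the type I interferon receptor, was at 8.49, 10.3, 6.78, 5.86 and 8.28 CPM in WT and at 10.6, 10.9, 8.91, 13.1 and 12.9 CPM in cKO (log2 fold change 0.51, standard error 0.16, edgeR adjusted p = 0.0296). The groups overlapped, and the call was lost in 7 of 18 alternatives, among them scaling by library size only. Il20rb, a chain of receptors for IL-20 family cytokines, rose from 0.902 ± 0.299 to 1.59 ± 0.438 CPM (SD, n = 5 each, edgeR adjusted p = 0.0465), a call lost in 14 of 18 alternatives. Il17rc, which pairs with IL17RA, had the highest CPM of the 14 and was at 42.2 ± 7.92 and 50.8 ± 7.28 CPM (SD, n = 5 each, edgeR adjusted p = 0.146). Il17rd was at 8.35 and 8.81 CPM and Il11ra1 at 6.01 and 6.42 CPM, and neither passed. Il13ra2, the decoy receptor for IL-13, had 0 counts in all 10 libraries, and Il20ra and Cntfr had at most 2 counts in any.

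Ligands were almost unseen in these crypts. Of 18 listed, 15 were not tested, with at most 8 counts in any library, and 5 of them (Il13, Il17a, Ifnb1, Ifnl2, Ifnl3) had 0 counts in all. A count of 0 allows up to 3 counts per library. The 3 that were tested belong to the IL-6 family, and none passed: Lif was at 2.84 and 3.25 CPM, Ctf1 at 2.30 and 1.95 CPM, and Clcf1 at 0.792 and 0.314 CPM in WT and cKO.

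The kinases and transcription factors below the receptors were tested as 13 genes, of which 3 were higher and 1 lower, with a median log2 fold change of 0.06. The share that passed was 30.8%, near the 28.3% of all genes tested. Jak2, the kinase bound to IFNGR2 and one of those used by IL6ST, rose most. It was at 68.1, 65.1, 57.9, 50.1 and 48.0 CPM in WT and at 101, 96.0, 85.3, 106 and 108 CPM in cKO, without overlap (log2 fold change 0.78, standard error 0.10, edgeR adjusted p = 0.000799). The call held in all 18 alternatives, with log2 fold changes from 0.65 to 0.84. Stat2 and Irf9, parts of the complex that type I and type III interferons activate, rose from 14.8 ± 2.13 to 21.0 ± 3.70 CPM and from 21.2 ± 3.97 to 28.6 ± 3.80 CPM (SD, n = 5 each, edgeR adjusted p = 0.0131 and 0.0305). Their calls were lost in 3 and 7 of 18 alternatives. Jak3, the kinase of the common γ chain of lymphocyte receptors, fell from 8.66 ± 0.998 to 6.34 ± 0.624 CPM (edgeR adjusted p = 0.0115). Jak1 (128 and 134 CPM) and Stat6, the factor used by IL-4 and IL-13 (129 and 134 CPM), did not pass.

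Among 15 negative regulators, 2 were higher and 2 lower, a share of 26.7%, near the 28.3% of all genes tested. Usp18, which limits type I interferon signalling at IFNAR2, rose from 1.31 ± 0.502 to 3.94 ± 1.08 CPM (SD, n = 5 each, edgeR log2 fold change 1.59, adjusted p = 0.0019). Socs4 rose from 49.4 ± 4.72 to 63.8 ± 3.47 CPM (edgeR log2 fold change 0.37, adjusted p = 0.00467). The call was lost on both TPM scales, where limma gave log2 fold changes of 0.14 (adjusted p = 0.401 and 0.399). Socs7 fell from 30.7 ± 2.43 to 25.2 ± 1.75 CPM and Ptpn1, a phosphatase of JAK2 and TYK2, from 39.7 ± 5.24 to 31.6 ± 1.90 CPM (SD, n = 5 each, edgeR adjusted p = 0.0162 and 0.0167), and both calls were lost without WT replicates 3 and 4. Ptpn11, Socs2 and Ptpn2 were the most abundant of those that did not pass. Of 10 further cytokine receptors tested, 3 passed, 30% and near the 28.3% of all genes. Tnfrsf1a, a TNF receptor, rose from 79.8 ± 6.19 to 95.8 ± 5.62 CPM (edgeR adjusted p = 0.0143). Tnfrsf1b, the other TNF receptor, fell from 18.3 ± 2.64 to 13.6 ± 1.74 CPM, and Tgfbr2, a TGF-β receptor chain, from 43.2 ± 9.20 to 31.3 ± 3.66 CPM (edgeR adjusted p = 0.0198 and 0.0272). Their calls were lost in 5, 2 and 7 of 18 alternatives, while Ltbr, Tgfbr1 and Il1rap did not pass.

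**Figure D4:**
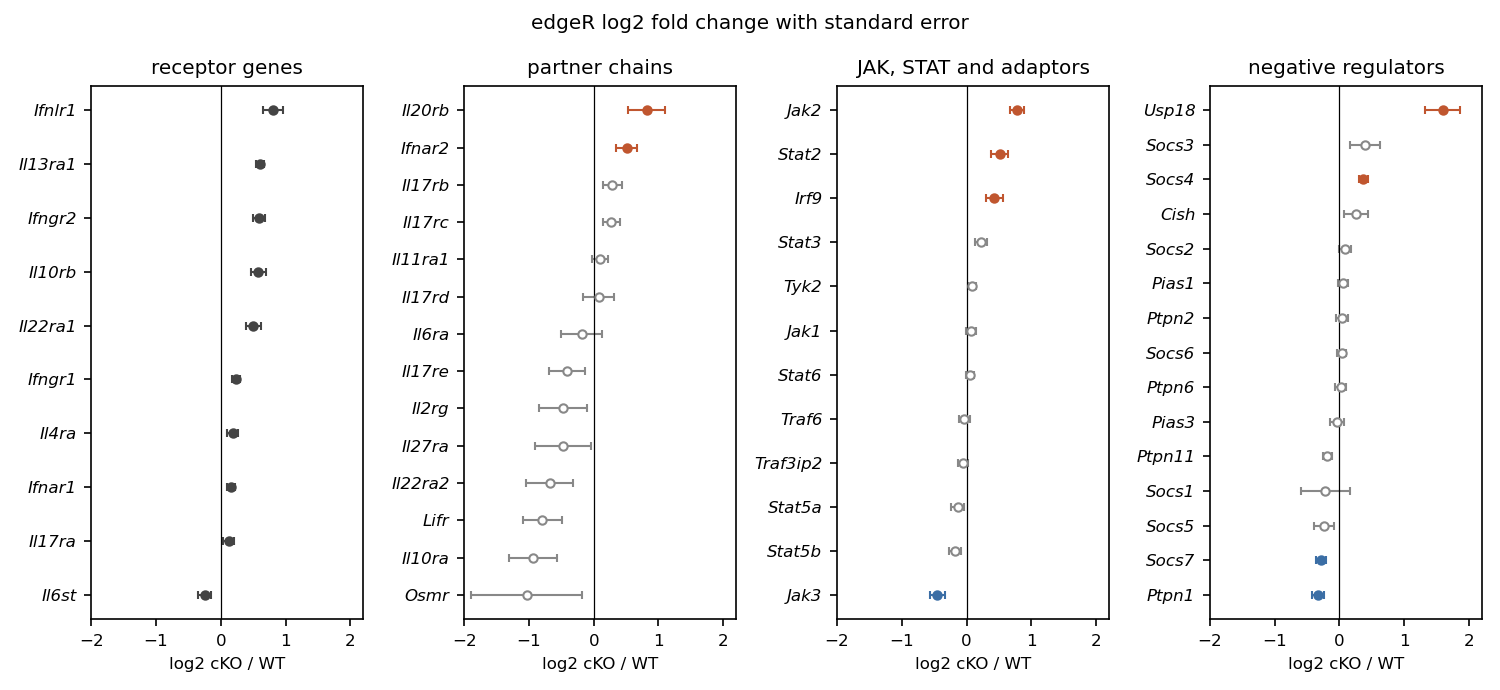
Log2 fold change of cKO over WT with its standard error (horizontal axis) for the 10 receptor genes and for the tested partner chains, JAK and STAT genes with adaptors, and negative regulators. Orange marks genes higher and blue genes lower at an adjusted p below 0.05, open circles did not pass, and the receptor genes are drawn in dark grey because they were chosen on this contrast. Of the receptor genes 9 lie right of 0 and Il6st left of it, and Jak2 lies at 0.78.

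Genes that respond to each receptor's cytokines did not move alike. Of all genes tested 28.3% passed, 15.6% higher and 12.7% lower. The largest share was in the list for type I and type III interferon, where 12 of 15 genes were higher and none lower, with a median log2 fold change of 1.22. Ifit1, an antiviral RNA-binding protein, was at 2.78, 4.23, 1.93, 0.669 and 2.33 CPM in WT and at 22.5, 11.8, 8.84, 15.2 and 10.7 CPM in cKO (log2 fold change 2.53, standard error 0.42, edgeR adjusted p = 0.00277). Rsad2, which encodes viperin, rose from 0.452 ± 0.182 to 1.87 ± 0.599 CPM, and Ifih1, a sensor of viral RNA, from 35.5 ± 3.19 to 51.0 ± 2.804 CPM (SD, n = 5 each, edgeR adjusted p = 0.0016 and 0.000991). Rsad2 did not pass on either TPM scale, where its log2 fold change was 0.52 or 0.93 and not 2.04. Within WT the enterocyte marker sum was highest in replicate 2 (8667 CPM) and lowest in replicate 4 (1797 CPM). Several genes of this list, among them Ifit1, were highest and lowest in the same WT animals, while Ifih1 and Rsad2 were not. What the enterocyte shift contributes to this list was not tested. In the interferon-γ list 1 gene of 16 was higher and 2 were lower, and the median log2 fold change was 0.23, with 12 values above 0 and 4 below. Igtp, a GTPase against intracellular parasites, rose from 8.20 to 15.5 CPM (edgeR adjusted p = 0.0328, lost in 10 of 18 alternatives). Ciita, the regulator of MHC class II genes, fell from 9.49 to 4.71 CPM, and Cxcl9, a chemokine, from 1.53 to 0.598 CPM (edgeR adjusted p = 0.0245 and 0.0276). The Ciita call was lost in 3 of 18 alternatives, among them without cKO replicate 1, and that of Cxcl9 in 4, each of which left out a single animal (WT 1, WT 5, cKO 3, cKO 4).

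The lists for the other receptors were smaller. For IL-4 and IL-13, 1 of 7 genes passed: Spdef, a transcription factor of goblet and Paneth cells, fell from 18.1 ± 1.28 to 13.01 ± 1.35 CPM without overlap (SD, n = 5 each, edgeR adjusted p = 0.00352). For IL-22, 1 of 7 passed: Muc1, a membrane mucin, fell from 1.96 ± 1.33 to 0.400 ± 0.448 CPM (edgeR adjusted p = 0.0381, lost in 9 of 18 alternatives). Of the 7 log2 fold changes of that list 3 were above 0 and 4 below, with a median of −0.047. For IL-17, 1 of 7 passed: the chemokine Ccl20 rose from 1.78 ± 0.580 to 4.87 ± 3.47 CPM, with cKO replicate 1 at 11.01 CPM (edgeR adjusted p = 0.0211, lost in 3 of 18 alternatives, among them without WT replicate 4). The medians were 0.10 for the IL-4 and IL-13 list and −0.32 for the IL-17 list. For the IL-6 family 5 of 7 were higher, with a median of 0.47. They include the kinase Pim1, from 16.1 ± 4.01 to 31.0 ± 5.27 CPM, the survival gene Bcl2l1, from 27.7 ± 4.04 to 39.1 ± 4.85 CPM, and Junb, from 20.8 ± 2.34 to 28.8 ± 5.41 CPM (SD, n = 5 each, edgeR adjusted p = 0.00253, 0.00793 and 0.0157). The Junb call was lost in 4 of 18 alternatives, among them scaling by library size only. These genes answer many other signals as well, and the lists were chosen with earlier results of these libraries known. Over all 114 pathway genes tested, 27 were higher and 9 lower, 31.6% against the 28.3% of all genes.

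**Figure D5:**
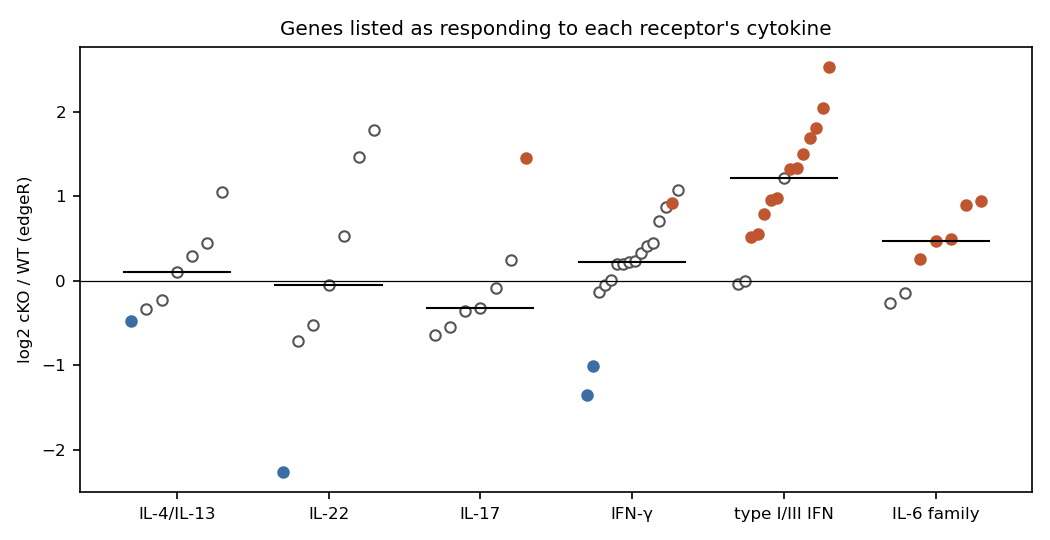
Log2 fold change of cKO over WT (vertical axis) for genes listed as responding to the cytokines of each receptor (horizontal axis), 1 point per gene. Orange is higher and blue lower at an adjusted p below 0.05, open circles did not pass, and the line is the median of the list. In the list for type I and type III interferon 12 of 15 genes are orange, and in the interferon-γ list 1 of 16.

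Over the deviations of the 10 libraries from their genotype mean, the genes most like Il13ra1 among 9207 others with a mean of at least 10 CPM were Alkbh1 (Pearson r = 0.947), Rsrp1 (0.931), Phf13 (0.926), Trim21 (0.921) and Edrf1 (0.842). Between the genotypes these genes did not resemble it, with log2 fold changes of −0.34, 0.01, −0.43, −0.08 and −0.04. The deviations of Il13ra1 were small and the points share library depth and scaling, so the order is a description.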

How the data were processed

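Bulk RNA-seq libraries of poly(A) RNA were made from crypts of the jejunum (5 WT and 5 Arid3a cKO animals), isolated after the villi had been scraped off and grouped by the genotype in the labels. The authors ran the nf-core/rnaseq pipeline, with STAR alignment and RSEM quantification against the Ensembl annotation of GRCm38, and deposited expected counts, TPM and the weighted and effective length of each of 54838 genes per library, without normalization of the counts between libraries. TPM is scaled by the authors to the weighted length, so it moves with it. RSEM divides shared reads among overlapping genes, and the strand setting is not given in the sources used here. FPKM was not used.

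Expected counts were rounded and tested with edgeR 4.0.16 in R 4.3.3 (filterByExpr with minimum count 10 and minimum total count 15, TMM, robust quasi-likelihood test, Benjamini-Hochberg adjustment, threshold 0.05), which kept 14719 genes. Levels are CPM on TMM-scaled library sizes, as mean ± SD over animals. Standard errors are those of the fitted log2 fold change. For marker sums and weighted lengths, exact permutation tests (two-sided) ran through all 252 assignments (scipy 1.17.1). The weighted length was adjusted over all genes whose length varied, a choice made after the files were seen, as was the choice of the motifs. The authors' own model was DESeq2 with genotype and time, and time has 1 level here. Totals of 27050455 to 31053622 counts give counting error that matters mainly below a few CPM, and it leaves out the difference between animals. The scripts were tested on simulated data. Gene positions and symbols came from GENCODE M21, which gave a symbol to 54723 genes, and promoter windows from RefSeq (GRCm38.p6).

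The 10 receptor genes and all gene lists were chosen with earlier results of these data known. The genes named are Arid3a, the 10 receptor genes, every gene past the threshold in the lists of chains, receptors, ligands, kinases and regulators with up to 3 further genes of each by level, up to 3 genes in each direction of each response list by adjusted p, the neighbours in clusters with more than 1 receptor gene, and the 5 genes most like Il13ra1. A gene that meets this rule is not reported here, by name or in a figure, though it stays in the tests and counts. Results were recomputed without a filter, with scaling by RLE factors or by library size only, with DESeq2 1.42.0, limma 3.58.1 on log2(TPM + 0.5) and log2(TPM + 0.1) for genes with a mean of at least 0.5 TPM, with a block on the replicate number, leaving out each animal, other numbers of neighbours, the effective length and summed TPM.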

Additional observations from a re-analysis of the deposited data

Results flagged for a closer look

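In groups of 5 animals, an animal was singled out where its gap to the nearest other animal took more than 0.71 of the range (Dixon's criterion). Of 140 groups screened 9 were singled out, and chance alone gives about 1 in 20. Il6st in WT replicate 2 was at 29.1 CPM, with the other WT animals at 40.6 CPM or more. Muc1 in cKO replicate 4 was at 1.19 CPM, Ccl20 in cKO replicate 1 at 11.01 CPM and Ciita in WT replicate 1 at 14.6 CPM, each the highest of its group. The weighted transcript length of Ifngr1 in cKO replicate 4 was 2062 bases. Among the marker sums, Paneth cell genes in WT replicate 3 reached 17631 CPM and goblet cell genes in WT replicate 4 only 2451 CPM. In cKO replicate 4 the myeloid genes summed to 98.6 CPM and the stromal genes to 131 CPM. The causes of these values were not tested.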

How the results depend on the processing

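The alternatives reuse the values on which the receptor list was chosen, so its calls show only how they depend on the processing. The number of receptor genes past the threshold stayed at 5 to 7 of 10 under every alternative run, and Il13ra1, Il10rb, Ifngr2 and Ifnlr1 passed in all of them. Which other genes passed changed: Il6st passed as lower under library size only (5 higher and 1 lower, without Ifngr1), on TPM (4 and 1, without Ifngr1 and Il22ra1) and without WT replicate 2 (6 and 1), and Ifnar1 passed without WT replicate 1 (7 and 0). Scaling by library size only, or testing TPM, moved the median log2 fold change of all genes from −0.03 to −0.16 and to −0.12 or −0.13, and with it the split of the calls from 2298 higher and 1869 lower to 1544 and 4030, and to 1387 and 2738 or 1384 and 2725. All receptor log2 fold changes shifted down with it, for Il13ra1 to 0.48 and 0.50 or 0.51. Under library size only the signs of Il17ra (−0.0081), Il17rd (−0.053), Il11ra1 (−0.033), Ltbr (−0.035), Jak1 (−0.069), Stat6 (−0.075), Socs2 (−0.050) and Ptpn2 (−0.092) turned. On log2(TPM + 0.5) they turned for Il17ra (−0.064), Il17rd (−0.0046), Ltbr (−0.0016), Jak1 (−0.094), Stat6 (−0.092), Socs2 (−0.081) and Ptpn2 (−0.053), and on log2(TPM + 0.1) for Il17ra (−0.068), Ltbr (−0.0016), Jak1 (−0.095), Stat6 (−0.092), Socs2 (−0.082) and Ptpn2 (−0.054). None of these genes passed in either fit. Leaving out 1 animal turned Il17rd (−0.094 to 0.27 over the 10 fits, below 0 without WT replicate 5 or cKO replicate 4) and Ptpn2 (−0.016 to 0.094, below 0 without cKO replicate 2).

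Without WT replicates 3 and 4, the animals with the least enterocyte marker RNA and a choice made after seeing the data, 2142 genes passed and not 4167, with 17 pathway genes and not 36, 5 neighbours and not 11, and 5 receptor genes and not 6 (Ifngr1 no longer passed). Signs turned for Tgfbr1 (0.027), Il1rap (0.10) and Socs2 (−0.0080). Fewer animals are in that fit, and the cause was not tested. Leaving out 1 animal gave 3007 to 4684 genes, 26 to 42 pathway genes and 7 to 14 neighbours, with 7 neighbours without WT replicate 3, WT replicate 4 or cKO replicate 4. Taking 5 neighbours on each side gave 19 of 70.

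Animals with the same replicate number did not deviate together (Pearson r across genes from −0.16 to 0.13), and 0 of 5 WT animals resembled the cKO animal of their own number most. The numbers thus gave no sign of pairing, which a check on 5 numbers cannot exclude. With the replicate block 3048 genes, 6 receptor genes, 34 pathway genes and 7 neighbours passed. Permuting within replicate numbers allows no p below 0.0625, so that 0 of 13 marker lists could pass and not 9, and the Il6st length difference of 0.13 on the log2 scale had p = 0.0625 in the exact permutation. Genes near 1 CPM rest on about 30 counts per library.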
